A study of Mus musculus with 6 samples.

Results

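The 26S proteasome is the protease that degrades proteins tagged with ubiquitin, and its constitutive subunits are the genes described here. They were taken from a table of read counts per gene as every symbol made of Psma, Psmb, Psmc or Psmd and a number, except Psmb8, Psmb9 and Psmb10, the inducible catalytic subunits of the immunoproteasome. This gave 36 of the 44792 symbols in the table. The hearts came from 3 mice carrying R193H, a substitution in cTnI, and from 3 wild type mice. Cardiac troponin I, abbreviated cTnI, is the subunit of troponin that holds back contraction on the thin filament. All 6 were of the C57BL/6 strain, 3 months old, untreated and kept under specific pathogen free conditions, and each heart gave 1 library of total RNA. By the series design the 3 hearts per genotype were biological repeats. How the substitution was made, its zygosity and the sex of the mice are unknown here, as the sources used do not state them.

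The catalytic core of the proteasome, the 20S particle, is a barrel of stacked rings, with outer rings of alpha subunits that gate the entrance and inner rings of beta subunits that hold the active sites. The 19S regulatory particle caps the barrel: its base carries a ring of ATPases that unfold the substrate, and its lid removes the ubiquitin. In heart muscle, where sarcomere proteins turn over throughout life, the ubiquitin and proteasome system is a main route of their breakdown. The transcription factor NFE2L1 is known to raise the subunit genes together when proteasome activity falls, through antioxidant response elements in their promoters.

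Library totals were 21852210, 19582600 and 21468372 counts in R193H replicates 1, 2 and 3, and 14736067, 17432761 and 20652534 counts in wild type replicates 1, 2 and 3. Tnni3, which encodes cTnI, had 86739, 79585 and 79512 counts in R193H hearts and 45125, 57191 and 65531 counts in wild type hearts. These are raw counts, not scaled for the library totals, which were higher on average in R193H hearts. On the CPM scale defined below, Tnni3 had 3900, 3641 and 3703 CPM in R193H and 3202, 3466 and 3282 CPM in wild type hearts. Each R193H heart thus stayed above every wild type heart after scaling. The log2 fold change was 0.18 (SE 0.080, 95% interval -0.0027 to 0.36), and Tnni3 was not called (edgeR adjusted p = 0.863). Counts per gene do not show the substituted base. Markers of heart muscle cells were abundant in every heart, with a summed level of 42718 ± 1913 CPM in R193H and 45726 ± 1380 CPM in wild type hearts (SD, n = 3 each). CPM here are counts scaled to a common library total after adjustment by the trimmed mean of M values (TMM). Of the 8 markers, 6 had lower and 2 higher R193H means, and 0 were called. For 3 of them all R193H hearts lay below all wild type hearts, against 5.8% of all genes tested, and for 1 above. Summed erythroid markers were 476, 630 and 566 CPM in R193H and 3094, 257 and 2973 CPM in wild type hearts. Transcripts of mitochondrially encoded proteins took 30.6% of the counts in R193H replicate 2, against 34.8% to 36.1% in the other 5 hearts. Each library is a mixture of the cells of a heart, so fewer cells of a type and less RNA per cell cannot be told apart.

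Promoter sequences are shown for the members in which the core of the antioxidant response element lies close to the start site on the gene's own strand, because this is the element through which the subunit genes are known to be raised together. The core was searched for as TGACNNNGC on both strands, from 250 bases before to 50 after the start site, in RefSeq promoter windows on GRCm38.p6. Windows were held for 29 of the 36 members, 31 windows in all since a gene can have several start sites. The core was found in 5 of the 31 windows (16.1%), those of Psmb5, Psmb6, Psmc6, Psmd12 and Psmd9, against 12.4% of 32851 windows of all genes, and such a match is a description of letters and not a site. Capitals mark the core, and lower case letters up to 25 bases on each side, ended at the start site where that came first.
Psmb5, chr14:54618009-54618067, minus strand: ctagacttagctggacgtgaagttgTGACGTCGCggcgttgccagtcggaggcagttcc
Psmb6, chr11:70525323-70525356, plus strand: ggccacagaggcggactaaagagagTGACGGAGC
Psmd9, chr5:123228134-123228189, plus strand: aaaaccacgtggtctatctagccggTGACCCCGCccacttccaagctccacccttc

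The ETS-type motif CCGGAAG, searched for on both strands, was in 11 of the 31 windows (35.5%), against 8.86% of all windows. These were windows of 10 members, Psma6, Psmc1, Psmc2, Psmc6, Psmd2, Psmd4, Psmd6, Psmd11, Psmd12 and Psmd13. The GC box GGGCGG was in 58.1% of the members' windows and in 35.7% of all windows, and the CCAAT box in 38.7% and 37.4%. The windows of Psmc1 and Psmd2 are shown because these were the members with lower R193H means that came first in order of p, and their capitals mark the reverse complement of the ETS-type motif.
Psmc1, chr12:100110149-100110201, plus strand: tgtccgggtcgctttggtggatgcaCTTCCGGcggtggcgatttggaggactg
Psmd2, chr16:20651601-20651651, plus strand: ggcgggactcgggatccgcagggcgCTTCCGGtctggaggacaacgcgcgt

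Constitutive subunit messages were at closely similar levels in R193H and wild type hearts. Of the 36 members, 34 had enough counts to be tested, and 0 of these 34 passed an adjusted p of 0.05 in edgeR's quasi-likelihood test over all 14370 genes tested. Over all genes the share called was 0.00696%, which is 1 gene. At an unadjusted p under 0.05, 1 member was higher in R193H hearts (Psmb3) and 0 were lower, where the shares of all genes were 3.22% and 2.51%, or 5.73% in either direction. DESeq2 and limma-voom also called 0 members, with 0 and 1 at an unadjusted p under 0.05. The 3 R193H hearts lay above the 3 wild type hearts for 1 member, again Psmb3, and below them for 0, against 6.02% and 5.8% of all genes. Both shares among the members were at or under the background.

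The size of the differences was small in nearly every member. The log2 fold change of R193H over wild type was within 0.2 of zero for 33 of the 34 members (97.1%), against 70.7% of all genes tested and 86.0% of the 7940 genes with a mean of at least 10 CPM. It was within 0.1 for 25 members (73.5%), against 44.4% and 57.1%. The 95% interval of the fold change lay inside 1.5-fold in both directions for 33 members, with Psma8 as the exception, against 62.2% of all genes and 90.9% of genes of at least 10 CPM. For 27 members it lay within 0.32 of zero on the log2 scale, and Psma5, Psma8, Psmb3, Psmb5, Psmc1, Psmd1 and Psmd10 reached further. Hearts of the same group also differed little: the median SD within groups was 0.080 on the log2 scale, against 0.17 over all genes and 0.12 over genes of at least 10 CPM.

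The median log2 fold change of the members was 0.0088, beside -0.00036 over all genes tested. A higher R193H mean was found for 19 of 34 members (55.9%), against 49.9% of all genes. That count was 12 without R193H replicate 1 and lay between 16 and 22 without any other heart. Scaling by library totals in place of TMM moved the median of all genes to 0.13 and that of the members to 0.13, with 31 members higher, so each value here is relative to that shift.

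**Figure D1:**
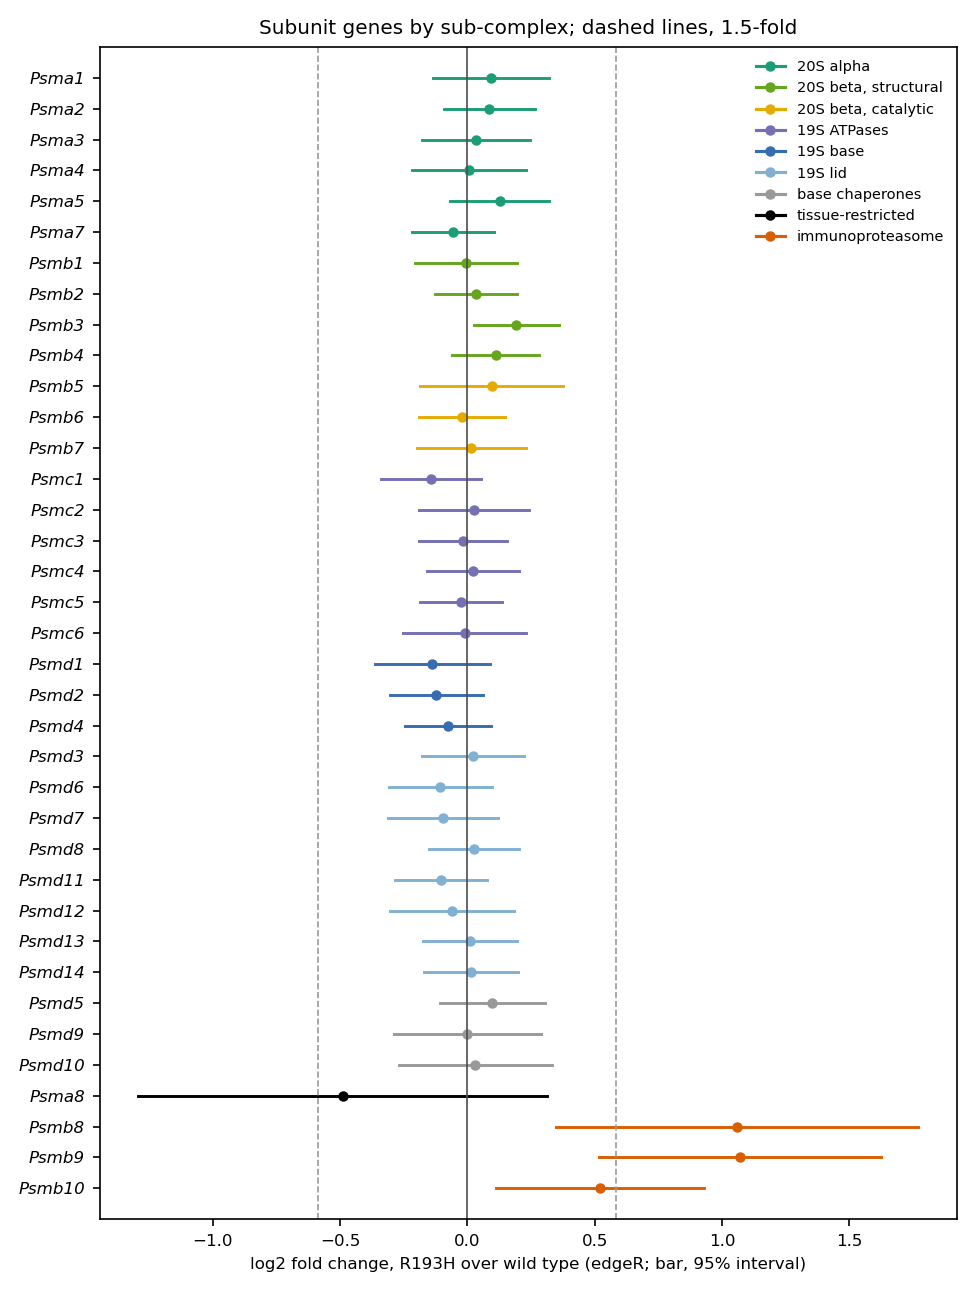
Log2 fold change of R193H over wild type (points, edgeR) with its 95% interval (bars) for the 34 tested members by sub-complex and for the 3 immunoproteasome subunits at the bottom. The intervals of 33 members lie between the dashed 1.5-fold lines, that of Psma8 is the widest among the members, and the intervals of Psmb8, Psmb9 and Psmb10 lie right of zero; scaling by library totals moves all points right by about 0.13.

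By sub-complex, the medians of the 20S rings were slightly above zero and those of the 19S base and lid slightly below it, and several turned when a single heart was left out. The median log2 fold change was 0.060 in the alpha ring (5 of 6 tested members higher), 0.015 for the constitutive catalytic beta subunits (2 of 3 higher) and 0.073 for the other beta subunits (3 of 4 higher). It was -0.014 for the ATPases (2 of 6 higher), -0.12 for the other base subunits (0 of 3 higher) and -0.025 for the lid (4 of 8 higher). Under library totals these 6 medians were 0.18, 0.14, 0.20, 0.11, 0.0044 and 0.099, all above zero. The alpha ring had 3 of 6 members higher without R193H replicate 1, and the lid 1 of 8 without R193H replicate 1 and 5 of 8 without R193H replicate 2. The median of the ATPases was 0.011 without R193H replicate 2 and 0.015 without wild type replicate 3 (3 of 6 higher each), and that of the lid was 0.0097 without R193H replicate 2. The catalytic median was -0.013 (1 of 3 higher) without wild type replicate 2, and also with pseudogene and Mir686 counts added. The other base subunits had 0 of 3 higher without any 1 heart, and the alpha and structural beta medians stayed above zero. None of these differences between sub-complexes was tested.

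Transcript length moved with the fold change. Across the 33 tested members other than Psma8, Spearman's rho between length and log2 fold change was -0.28, as a description over genes that share the same 6 libraries. It was -0.16 over 13177 genes tested that had a length and -0.22 over the 7580 of them with at least 10 CPM. Transcripts of these members ran from 766 bases for Psmb3 to 4397 bases for Psmd5, and the part of length in the sub-complex medians was not tested.

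**Figure D2:**
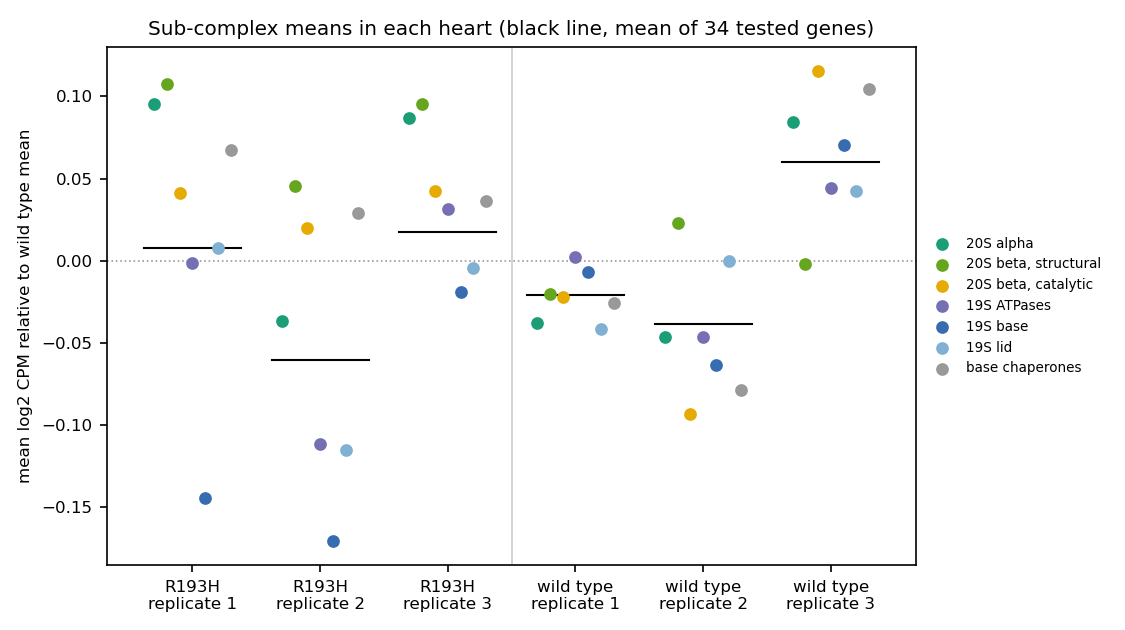
Mean log2 CPM of each sub-complex relative to the wild type mean (coloured points) in the 3 R193H hearts and the 3 wild type hearts, with the mean of the 34 tested members as a black line. The black lines span -0.061 in R193H replicate 2 to 0.060 in wild type replicate 3, and the structural beta subunits are the points that stay above zero in all 3 R193H hearts together with the catalytic ones and the base chaperones.

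For the mean over the tested members, the spread between hearts of 1 group was wider than the difference between the groups. The difference was -0.012 on the log2 scale, with SDs of 0.042 in R193H and 0.052 in wild type hearts. Averaged over the tested members, the log2 level against the wild type mean stood at 0.0077, -0.061 and 0.017 in R193H replicates 1, 2 and 3, and at -0.021, -0.039 and 0.060 in wild type replicates 1, 2 and 3. R193H replicate 2 was the lowest and wild type replicate 3 the highest. R193H replicate 2 held the lowest value of the 6 hearts for 13 of 34 members, and R193H replicate 3 and wild type replicate 3 held the highest for 10 and 9. R193H replicate 2 also had the highest summed fibroblast markers, at 2008 CPM. These were 1288 and 1322 CPM in R193H replicates 1 and 3 and 1194 to 1430 CPM in wild type hearts. The share of mitochondrially encoded transcripts was lowest in R193H replicate 2 too. The part of either in the low values of that heart was not tested. Summed over members, the level was 2078, 1945 and 2128 CPM in R193H hearts and 2036, 2034 and 2156 CPM in wild type hearts. As a share of all counts, before TMM scaling, the members took 0.212%, 0.217% and 0.213% in R193H and 0.195%, 0.193% and 0.208% in wild type hearts. On this scale the groups did not overlap, and the mean difference was 0.0153 percentage points. With mitochondrially encoded genes left out it was 0.0114 percentage points, a share of a smaller total that is not directly comparable. The shift was not particular to the members, as under library totals the median log2 fold change was 0.133 for members and 0.127 for all genes.

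The alpha subunits form the outer rings and gate the channel. Psma5 had 33.7, 30.1 and 33.8 CPM in R193H replicates 1, 2 and 3, and 29.9, 28.2 and 31.2 CPM in wild type replicates 1, 2 and 3. The lowest R193H heart was within the wild type range, and the log2 fold change was 0.13 (SE 0.087, edgeR adjusted p = 0.9). Of the 75-base stretches of Psma5 transcripts, 35.2% also occur in the processed pseudogenes Gm8394 and Gm12989. These held 207 and 327 counts over all hearts against 3642 for Psma5, so its count is uncertain. With their counts added, the log2 fold change of Psma5 was 0.13 (SE 0.085). Psma2 measured 62.7, 59.5 and 64.8 CPM in R193H and 56.6, 56.2 and 63.1 CPM in wild type hearts, again with overlap, a log2 fold change of 0.087 (SE 0.081). Psma7, the highest alpha subunit per kilobase, had 65.4, 69.9 and 67.8 CPM in R193H and 69.8, 72.3 and 69.2 CPM in wild type hearts and was the 1 tested alpha gene with a lower R193H mean (-0.057, SE 0.072, and 0.072 under library totals). Psma1 and Psma4 stood at 0.093 and 0.0065.

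Psma3 was the lowest of the tested alpha genes, at 6.67 CPM per kilobase of transcript in R193H and 6.52 in wild type hearts. It had 20.1, 18.4 and 18.4 CPM in R193H and 18.1, 17.9 and 19.6 CPM in wild type hearts, which overlapped (log2 fold change 0.033, SE 0.095). Of the 75-base stretches of its transcripts, 14.3% also occur in the processed pseudogene Gm13835, which held 2805 counts over the 6 hearts against 2189 for Psma3 itself. With the copy's counts added, Psma3 stood at 15.4 CPM per kilobase in R193H and 14.6 in wild type hearts, and its log2 fold change was 0.080 (SE 0.097). How the authors' counting placed reads that match several genes was not given in the sources used here, so the level of Psma3 is uncertain.

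Psma6, an alpha subunit that every 20S particle needs, held 1 count in R193H replicate 2 and 0 in the other 5 hearts. A count of 0 allows up to 3 counts, which is 0.135 to 0.213 CPM by library and covers counting error only. The other 6 alpha genes of the standard ring averaged 18.6 CPM or more in either group. None of the 75-base stretches of its transcripts occurs in another transcript of the GENCODE M21 annotation. Psma6 lies on GRCm38 chromosome 12 at chr12:55384222-55418459 on the plus strand. Its value is given as listed, and whether the counting step set it to 0 was not tested.

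The catalytic beta subunits carry the active sites. Psmb5, Psmb6 and Psmb7 encode the chymotrypsin-like, the caspase-like and the trypsin-like activity. Psmb6 had 76.3, 74.8 and 70.5 CPM in R193H replicates 1, 2 and 3, and 73.5, 78.01 and 73.3 CPM in wild type replicates 1, 2 and 3. The groups overlapped, and the log2 fold change was -0.021 (95% interval -0.19 to 0.15). Psmb7 had 65.6, 58.9 and 70.6 CPM in R193H and 63.6, 59.3 and 70.02 CPM in wild type hearts, with a log2 fold change of 0.015 (95% interval -0.20 to 0.23). In both groups replicate 3 was the highest and replicate 2 the lowest for Psmb7, and the numbers are only names that pair no hearts.

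Psmb5 had 19.6, 21.3 and 19.8 CPM in R193H hearts and 18.4, 16.001 and 22.3 CPM in wild type hearts. The wild type hearts spanned a wider range than the R193H hearts and enclosed all 3 of them, with wild type replicate 2 the lowest. The log2 fold change was 0.096 (95% interval -0.19 to 0.38), and it was -0.013 without wild type replicate 2. At 22.5 CPM per kilobase in R193H and 21.03 in wild type hearts, Psmb5 stood far below Psmb6 (92.5 and 93.9) and Psmb7 (56.1 and 55.5), its partners in the same ring.

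The sequence of Psmb5 is shared with other annotated features, so its count is uncertain. The microRNA gene Mir686 lies whole inside exon 2 of Psmb5 on the same strand (exon at chr14:54616515-54616821, Mir686 at chr14:54616677-54616785, GRCm38), and a read from this stretch can be given to either. The stretch is shown, read on the minus strand from the reference, with Mir686 in capitals and 20 bases of Psmb5 on each side in lower case; it covers bases 266 to 374 of the 899 bases of the main Psmb5 transcript.
Psmb5 exon 2 around Mir686, chr14:54616657-54616805, minus strand: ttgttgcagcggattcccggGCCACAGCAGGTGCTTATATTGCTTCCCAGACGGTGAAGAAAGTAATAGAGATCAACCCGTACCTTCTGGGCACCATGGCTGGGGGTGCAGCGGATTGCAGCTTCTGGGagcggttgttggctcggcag

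A processed pseudogene, Gm3375 (chr7:3181093-3181888, plus strand), shares 35.8% of the 75-base stretches of that transcript, with a longest shared run of 194 bases. Psmb5, Mir686 and Gm3375 held 2296, 1351 and 1689 counts over the 6 hearts. Mir686 had 290, 251 and 282 counts in R193H and 172, 106 and 250 counts in wild type hearts, and Gm3375 had 269, 298 and 277 counts in R193H and 178, 409 and 258 counts in wild type hearts. Summed over the 3 features, the level was 44.7, 46.4 and 45.8 CPM in R193H hearts and 43.2, 47.2 and 47.8 CPM in wild type hearts. The log2 fold change of the sum was -0.013 (SE 0.077), with 50.8 CPM per kilobase in R193H and 51.2 in wild type hearts, beside 56.1 and 55.5 for Psmb7. The summing was chosen after the data were seen.

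Wild type replicate 2 stood apart in how the sum was divided. Gm3375 took 27.0%, 29.4% and 28.2% of it in R193H replicates 1, 2 and 3, and 29.2%, 52.5% and 27.0% in wild type replicates 1, 2 and 3. The Wilson 95% interval was 49.0% to 56.0% in wild type replicate 2, and the intervals of the other 5 hearts lay between 24.3% and 32.96%. Mir686 took 13.6% in wild type replicate 2 (Wilson 95% interval 11.4% to 16.2%), against 24.7% to 29.1% in the other hearts. These intervals cover counting error only. The low Psmb5 value of wild type replicate 2 thus stood beside a high pseudogene value and a sum inside the range of the other hearts, and a cause was not tested.

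**Figure D3:**
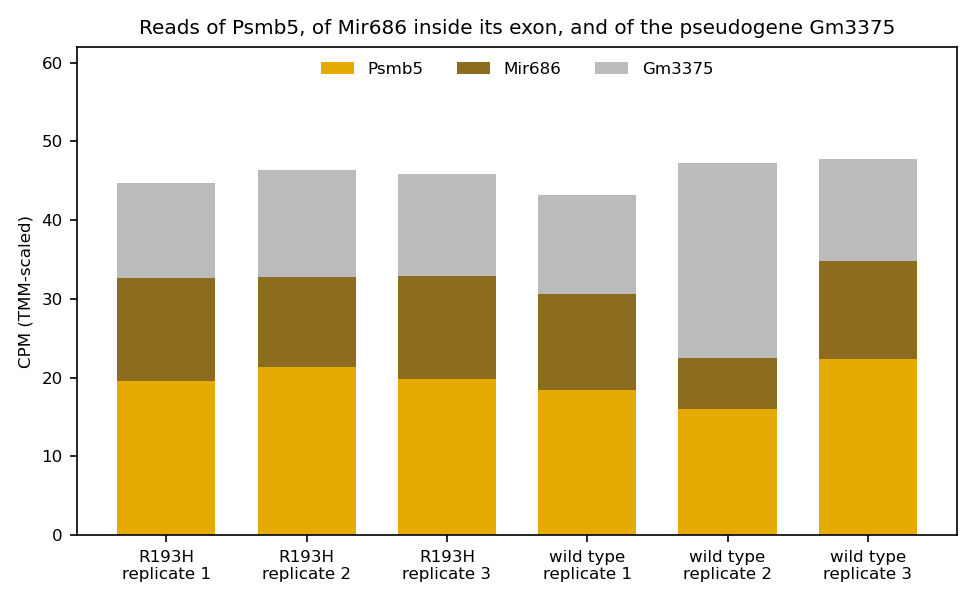
Stacked CPM (TMM-scaled) of Psmb5, of Mir686 inside its exon 2 and of the pseudogene Gm3375 in the 3 R193H hearts and the 3 wild type hearts. The sums lie between 43.2 and 47.8 CPM in all 6 hearts, while the Gm3375 portion is larger and the Psmb5 and Mir686 portions smaller in wild type replicate 2.

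The other beta subunits have no active site in their mature form and hold the ring together. Psmb3 was the member with the smallest p. It had 55.1, 53.2 and 56.02 CPM in R193H replicates 1, 2 and 3, and 48.96, 48.97 and 45.9 CPM in wild type replicates 1, 2 and 3. Each R193H heart was higher than every wild type heart, with a log2 fold change of 0.19 (SE 0.074, 95% interval 0.026 to 0.36). The unadjusted p was 0.0275, and the edgeR adjusted p of 0.794 missed the threshold. Without single hearts the log2 fold change stayed between 0.16 and 0.22, and it was 0.19 with the counts of the pseudogene Gm4950 added. Of the 229 stretches of 75 bases that Psmb3 shares with other transcripts, 68 occur in Gm4950 and 171 in the pseudogene AC114990.1. AC114990.1 had no counts listed under its symbol and could not be added.

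Psmb4 measured 72.9, 75.5 and 67.99 CPM in R193H and 66.3, 69.3 and 64.8 CPM in wild type hearts, where the lowest R193H heart lay under the highest wild type heart (log2 fold change 0.11, SE 0.077). Psmb2, the highest of the 4 per kilobase, had 70.6, 65.2 and 68.3 CPM in R193H and 67.4, 65.5 and 66.6 CPM in wild type hearts (0.034, SE 0.073). Psmb1 had 78.5, 71.5 and 82.8 CPM in R193H and 71.4, 79.2 and 82.995 CPM in wild type hearts and a log2 fold change of -0.0052 (95% interval -0.20 to 0.19), among the smallest of any member. The groups overlapped for all 3 of these genes.

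The ATPases of the 19S base form the ring that unfolds substrates. Psmc1 had 79.6, 71.8 and 87.6 CPM in R193H hearts and 89.2, 86.4 and 88.4 CPM in wild type hearts. R193H replicates 1 and 2 lay below all wild type hearts and R193H replicate 3 inside their range, for a log2 fold change of -0.14 (SE 0.087, edgeR adjusted p = 0.898). Without R193H replicate 2 it was -0.072. Psmc3, the member with the highest level per kilobase (103 CPM in R193H and 104 CPM in wild type hearts), had 169.6, 158 and 176 CPM in R193H and 168, 169 and 172 CPM in wild type hearts, a log2 fold change of -0.018 (SE 0.077). Psmc2, the lowest of the ring per kilobase, had 65.5, 56.8 and 71.8 CPM in R193H and 64.4, 60.4 and 65.8 CPM in wild type hearts (0.026, SE 0.096). Psmc4, Psmc5 and Psmc6 stood at 0.022, -0.024 and -0.011, and the groups of all 6 ATPases overlapped.

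The other base subunits bind ubiquitin or substrate carriers. Psmd2, a large scaffold that docks ubiquitin-like domains, had 148, 157 and 165 CPM in R193H and 161, 170.5 and 180.1 CPM in wild type hearts. The highest R193H heart lay above the lowest wild type heart, and the log2 fold change was -0.12 (SE 0.082). Psmd1, the other large scaffold, had 76.1, 66.3 and 81.03 CPM in R193H and 82.9, 73.8 and 89.1 CPM in wild type hearts, a log2 fold change of -0.14 (SE 0.10) that was -0.059 without R193H replicate 2. Psmd4, a ubiquitin receptor, had 67.2, 69.1 and 73.9 CPM in R193H and 75.8, 71.5 and 74.1 CPM in wild type hearts (-0.075, SE 0.075). All 3 had lower R193H means under TMM, with 2 of 3 higher under library totals (Psmd2 at 0.0044), and none passed the threshold.

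The lid carries the deubiquitinase Psmd14, which cuts the ubiquitin chain from the substrate and stood at 0.015 (95% interval -0.17 to 0.20). Psmd11, a scaffold of the lid, had 53.5, 50.6 and 54.9 CPM in R193H and 54.4, 54.97 and 61.1 CPM in wild type hearts (-0.10, SE 0.081). Psmd6 had 41.4, 38.9 and 42.8 CPM in R193H and 42.01, 41.4 and 48.99 CPM in wild type hearts (-0.11, SE 0.091), and it was -0.023 without wild type replicate 3, its highest heart. Psmd7, the partner of Psmd14 and the highest lid gene per kilobase, had 102, 88.9 and 114 CPM in R193H and 106, 108 and 112 CPM in wild type hearts (-0.096, SE 0.097, and -0.0075 without R193H replicate 2). The lowest lid gene, Psmd3, had 21.6, 20.9 and 19.3 CPM in R193H and 20.2, 20.7 and 19.99 CPM in wild type hearts (0.022, SE 0.090). Psmd8, Psmd12 and Psmd13 stood at 0.027, -0.061 and 0.011, and groups overlapped for all 8 lid genes.

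Psmd5, Psmd9 and Psmd10 share the naming of the subunits but encode chaperones that assemble the base and leave the finished particle. They had the 3 lowest levels per kilobase among the members of at least 1 CPM. Psmd5 had 18.9, 20.4 and 19.4 CPM in R193H and 17.7, 18.1 and 19.1 CPM in wild type hearts, with 1 R193H heart inside the wild type range (0.098, SE 0.092). Psmd9 had 14.3, 13.04 and 11.8 CPM in R193H and 13.1, 11.5 and 14.5 CPM in wild type hearts, and its log2 fold change of 0.00051 (95% interval -0.29 to 0.29) was the smallest of all members. Psmd10 had 7.91, 7.41 and 8.75 CPM in R193H and 7.59, 7.58 and 8.36 CPM in wild type hearts (0.031, SE 0.13). Of the Psmd9 stretches of 75 bases, 24.3% also lie in the overlapping long noncoding RNA Gm26745, so the reads of Psmd9 are uncertain. Gm26745 had no counts listed under its own symbol.

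Both tissue-restricted core subunits were near or at 0. Psma8, which replaces Psma7 in germ cells of the testis, had 13, 21 and 13 counts in R193H and 15, 15 and 21 counts in wild type hearts, or 0.585, 0.961 and 0.605 CPM and 1.06, 0.909 and 1.05 CPM. The log2 fold change was -0.49 (SE 0.36), and the hearts overlapped. The germ cell markers Ddx4, Dazl, Prm1 and Sycp3 together had 9, 7 and 10 counts in R193H and 7, 10 and 9 counts in wild type hearts. Psmb11, the beta subunit of cortical thymus epithelium, had 0 counts in all 6 hearts, as did the thymus markers Foxn1 and Aire. With Ccl25 included, the 3 thymus markers listed summed to 26, 18 and 26 counts in R193H and 11, 25 and 28 counts in wild type hearts. For a count of 0 the limit was again 0.135 to 0.213 CPM.

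**Figure D4:**
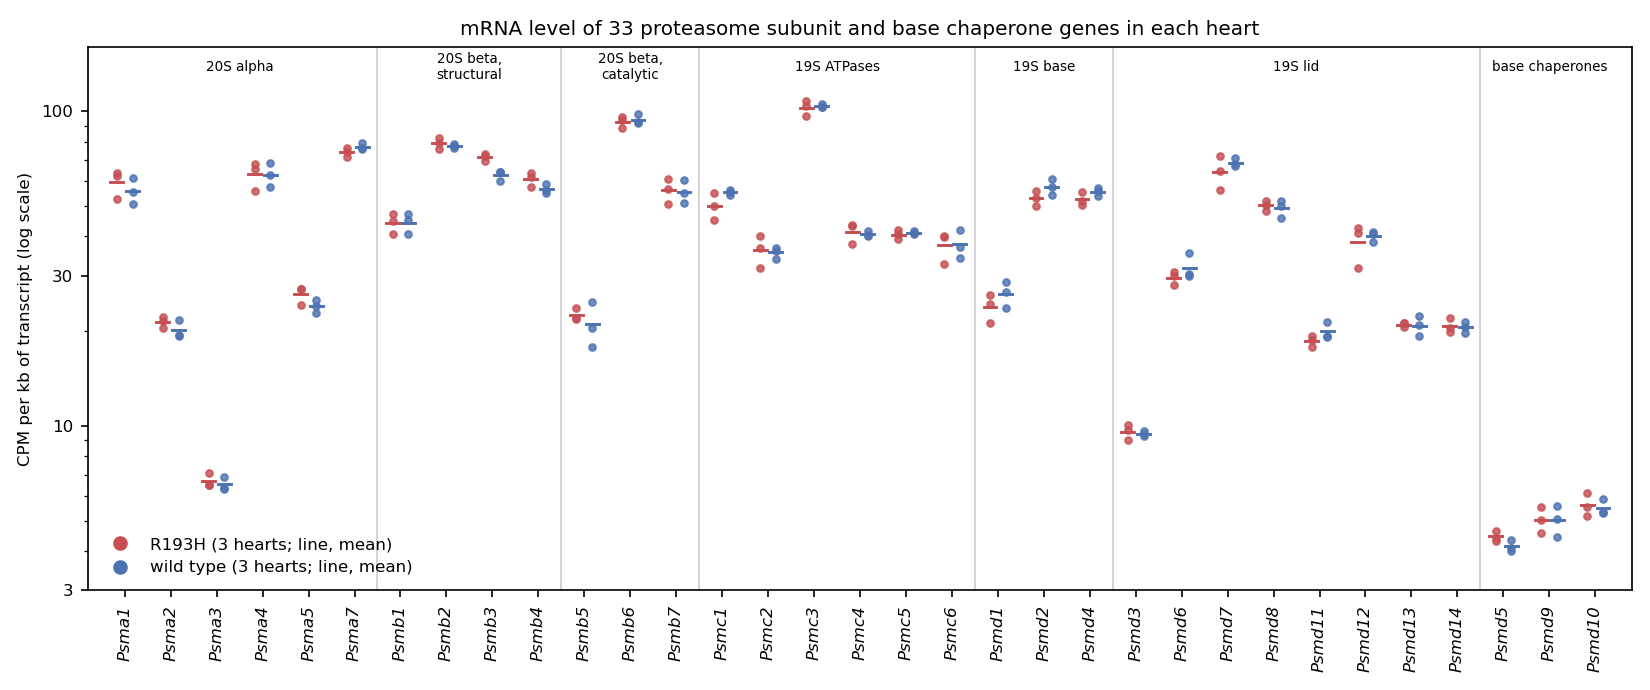
Level of the 33 tested members other than Psma8 in CPM per kilobase of transcript (log axis) in the 3 R193H hearts (red, left) and the 3 wild type hearts (blue, right) of each gene, with group means as lines. Levels range from about 4 for Psmd5 to about 103 for Psmc3, the base chaperones lie lowest, and the points of both groups overlap for every gene but Psmb3.

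Levels per kilobase differed far more between members than between genotypes. Psmc3, Psmb6, Psmb2 and Psma7 led the order with 103, 92.5, 79.2 and 74.1 CPM per kilobase in R193H hearts and 104, 93.9, 77.4 and 77.1 in wild type hearts. Psmd5 closed it with 4.45 in R193H and 4.16 in wild type hearts, and the median of the 33 genes was 40.5 and 40.8. Lengths were those of the principal GENCODE M21 transcript, so a gene whose heart transcripts are shorter is set too low here. Psmb2 and Psma7 lay within their SDs of each other in wild type hearts (77.4 ± 1.14 and 77.1 ± 1.81), and Psmd9 and Psmd10 likewise (5.02 ± 0.57 and 5.49 ± 0.32). With the counts of Gm3375 and Mir686 added, Psmb5 lay above that median in both groups, while Psma3 remained the lowest tested alpha gene with those of Gm13835 added.

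The inducible subunits Psmb8, Psmb9 and Psmb10 take the places of Psmb5, Psmb6 and Psmb7 when the immunoproteasome is built. Their log2 fold changes were 1.06 (SE 0.29), 1.07 (SE 0.24) and 0.52 (SE 0.18), with 3 of 3 R193H hearts above all wild type hearts for each. Such separation was found for 6.02% of all genes tested. Of the 75-base stretches, 9.97% of those of Psmb8 also occur in Gm20496 and 3.44% of those of Psmb9 in Tap1. In edgeR none of the inducible subunits passed over all genes (adjusted p = 0.722, 0.65 and 0.752). An unadjusted p under 0.05 was found for 3 of 3, where 3.22% of all genes were higher at that p. DESeq2 called Psmb8 and Psmb9 (adjusted p = 0.00422 and 0.00754), as did edgeR without R193H replicate 3 (adjusted p = 0.0279 and 0.024). That heart had the lowest Psmb8 and Psmb9 levels of its group, at 19.7 and 9.87 CPM. These settings called 42 and 21 genes over all genes tested, and no other setting called any of the 3 inducible subunits. The log2 fold changes were lower when R193H replicate 1 was left out, at 0.76, 0.81 and 0.28 for Psmb8, Psmb9 and Psmb10, and with any heart left out they ran up to 1.31, 1.30 and 0.67. An unadjusted p under 0.05 was reached by 2 of 3 without R193H replicate 2 or without wild type replicate 3.

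Within each heart, the inducible subunit was set against the constitutive one it replaces. The ratio of Psmb9 to Psmb6 counts was 0.259, 0.197 and 0.140 in R193H hearts and 0.0849, 0.0862 and 0.110 in wild type hearts. The ratio of Psmb10 to Psmb7 was 1.03, 0.696 and 0.671 in R193H hearts and 0.594, 0.626 and 0.486 in wild type hearts. For both pairs every R193H heart lay above every wild type heart, with log2 differences of 1.05 and 0.47 (exact two-sided permutation p = 0.1 each, the smallest that 3 hearts against 3 can give, and 0.15 adjusted over 3 ratios).

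The ratio of Psmb8 to Psmb5 was 2.17, 1.44 and 0.995 in R193H hearts and 0.676, 1.02 and 0.704 in wild type hearts. R193H replicate 3 lay just under wild type replicate 2, the heart with the low Psmb5 count (log2 difference 0.89, exact permutation p = 0.2, adjusted 0.2). With Mir686 and Gm3375 added to Psmb5 the log2 difference was 1.02 and the groups no longer overlapped (adjusted p = 0.1). The constitutive genes Psmb5, Psmb6 and Psmb7 themselves differed by 0.096, -0.021 and 0.015 on the log2 scale. Summed macrophage markers (7 of 8 were in the table) were 320, 325 and 235 CPM in R193H and 186, 197 and 218 CPM in wild type hearts, with 7 of 7 means higher in R193H. Their part in the ratios was not tested.

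**Figure D5:**
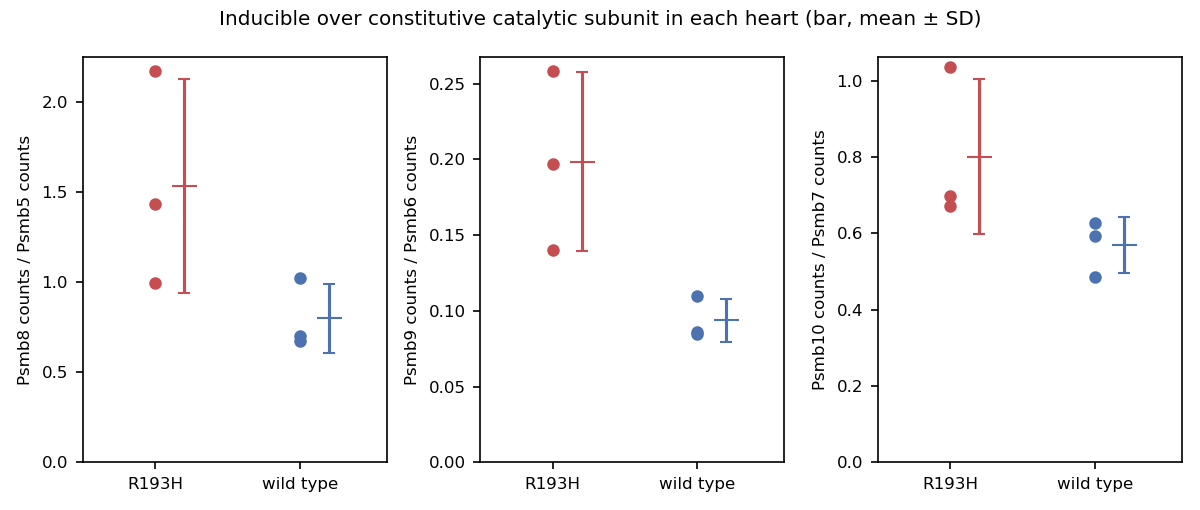
Counts of the inducible subunit divided by counts of the constitutive subunit it replaces, for Psmb8 over Psmb5, Psmb9 over Psmb6 and Psmb10 over Psmb7, in the 3 R193H hearts (left) and the 3 wild type hearts (right), with mean ± SD beside the points. The R193H hearts lie above the wild type hearts for Psmb9 and Psmb10, and the groups touch for Psmb8.

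Genes that act around the particle were read from the same fit. Over 49 genes of the proteasome pathway that are not members, the 3 inducible subunits included, 0 were called, 4 were higher and 2 lower at an unadjusted p under 0.05, and 17 (34.7%) had higher R193H means (median log2 fold change -0.038). Over all genes tested, 3.22% were higher and 2.51% lower at that p, 49.9% had higher means, and the groups did not overlap for 6.02% in the higher and 5.8% in the lower direction. Among the 49 pathway genes the groups did not overlap for 4 in the higher and 3 in the lower direction. Among the 5 activators and inhibitors, Psme2, a subunit of the interferon-inducible 11S cap, had 31.7, 26.4 and 21.4 CPM in R193H and 20.4, 20.3 and 18.4 CPM in wild type hearts, which did not overlap (0.43, SE 0.14, edgeR adjusted p = 0.722). Its partner Psme1 stood at 0.23 (SE 0.11), with overlap. Without R193H replicate 1, Psme2 stood at 0.28 and Psme1 at 0.13. Psme4, the PA200 cap, lay the other way, at 86.4, 66.4 and 74.5 CPM in R193H and 96.6, 95.5 and 95.8 CPM in wild type hearts, with all R193H hearts below all wild type hearts (-0.34, SE 0.099, adjusted p = 0.722). Psme4 also has a long transcript, of 6491 bases, and the part of length in its value was not tested. Genes of at least 10 CPM with transcripts over 3 kb had a median log2 fold change of -0.040.

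The chaperones that assemble the core (Psmg1 to Psmg4 and Pomp) had higher R193H means for 5 of 5, with a median of 0.13, and for 2 of 5 without R193H replicate 1. Psmg3, Psmg1 and Psmg4 stood at 0.20 (SE 0.20), 0.13 (SE 0.18) and 0.14 (SE 0.20), and Psmg1 was 0.013 without wild type replicate 2. Of 7 receptors and deubiquitinases bound to the particle, 1 had a higher mean (median -0.078), and 4 did without R193H replicate 2. Those first in order of p were AI314180, the Ecm29 adaptor (-0.18, SE 0.11), the small lid subunit Shfm1 (-0.11, SE 0.081) and the ligase Ube3c (-0.084, SE 0.079). AI314180 was -0.075 without R193H replicate 2.

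Shuttle receptors, which carry ubiquitin-tagged proteins to the base, had 0 of 6 higher means (median -0.054). Ddi2, also the protease that activates NFE2L1 in human cells, had 32.7, 29.5 and 29.99 CPM in R193H and 39.8, 38.7 and 35.8 CPM in wild type hearts. The groups did not overlap (-0.31, SE 0.085, edgeR adjusted p = 0.722). The transcript is 9553 bases long, and the part of length in this value was not tested. Ubqln1 and Ubqln4 stood at -0.14 and -0.081, and Ubqln4 was -0.0062 without R193H replicate 2. Nfe2l1 itself had 485, 457 and 479 CPM in R193H and 466, 533 and 506 CPM in wild type hearts (-0.083, 95% interval -0.27 to 0.10). The 5 members with the antioxidant response element core in their windows stood at 0.096 (Psmb5), -0.021 (Psmb6), -0.011 (Psmc6), -0.061 (Psmd12) and 0.00051 (Psmd9). Of the 9 regulators, 3 had higher means (median -0.073), with Mafg at -0.17 and Nfe2l2 at -0.12, and Nfe2l2 was -0.0097 without R193H replicate 2.

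The ubiquitin precursor genes Ubb and Rps27a stood at -0.069 and -0.074. The unfoldase Vcp and its cofactors had 2 of 9 higher means (median -0.063), led by Faf1 (-0.14, SE 0.076, all R193H hearts below all wild type hearts), with Nsfl1c and Ubxn1 at 0.096 and -0.077. Under library totals the medians of the particle-bound, shuttle, regulator and Vcp lists were all above zero, at 0.041, 0.069, 0.048 and 0.062.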

How the data were processed

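Messenger RNA of 6 mouse hearts was measured by RNA sequencing. The deposited table holds raw read counts, whole numbers for each gene symbol and heart. HISAT2 2.0.4 and the GRCm38 build are named in the submitters' processing notes. The counting program, its annotation and its treatment of strand and of reads that match several places were not given in the sources used here, so genes that overlap or share sequence have uncertain counts.

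Columns were matched to hearts by title and grouped by the genotype label, and replicate numbers follow the order of listing. The test was the robust quasi-likelihood test of edgeR 4.0.16 in R 4.3.3, R193H over wild type without covariates, after filterByExpr (14370 genes kept, 30422 removed) and TMM scaling. P-values were adjusted over all genes tested by the Benjamini-Hochberg method with a threshold of 0.05. Each sets the group difference of a gene against its spread between these hearts, as moderated over all genes tested. Intervals are 95% intervals of the fitted fold change. The biological coefficient of variation was 15.8%, and no 2 hearts agreed within sampling noise. Ratios of counts were tested by exact permutation of hearts. Levels per kilobase use GENCODE M21 transcript lengths, and gene positions come from RefSeq on GRCm38.p6. The fit was checked on simulated counts. Alternatives were other scalings and filters, DESeq2 1.42.0, limma-voom (limma 3.58.1), a non-robust fit, mitochondrially encoded genes left out and each heart left out.

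Values per heart were given for the catalytic subunits, the 12 members with the smallest p, the 2 smallest changes, the highest and lowest per kilobase of each sub-complex and members near 0; other lists gave Psmb8, Psmb9, Psmb10, Nfe2l1, Psme1, Psme2 and up to 3 genes by p. One gene that this rule names is not reported here. Values of Psmd4 were added after they were seen. The members and lists were chosen with earlier results of these data known.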

Additional observations from a re-analysis of the deposited data

How the results depend on the processing

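No member was called under any setting: the lowest adjusted p of a member was 0.411, under library totals. The number of genes called over the whole table was 1 in the main test, 0 without mitochondrially encoded genes (806 at an unadjusted p under 0.05), 38 without a filter on low counts, 42 with the DESeq2 test and 3 to 21 with a heart left out. Under library totals 31 members had a higher mean and their median was 0.133, beside 0.127 for all genes. That scaling turned the sign of Psmb6 (0.107), Psmd2 (0.0044), Psmd11 (0.022), Psmd6 (0.018), Psmd7 (0.024), Psmb1 (0.118), Psma7 (0.072), Psmc3 (0.106), Psmc5 (0.105), Psmc6 (0.109), Psmd4 (0.051), Psmd12 (0.058), Nfe2l1 (0.043), Shfm1 (0.018), Ube3c (0.041), Ubqln4 (0.041), Ubb (0.064), Rps27a (0.058) and Ubxn1 (0.049). Psmd9 was -0.0033 with limma-voom, and Psmb5 was -0.013 with the counts of its copies added, an alternative chosen after seeing the data.

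With hearts left out, the members with a higher mean numbered 12 to 22, their median was -0.020 to 0.041 and the difference in their share of counts 0.012 to 0.020 percentage points. The log2 difference was 0.60 to 1.17 for the Psmb8 to Psmb5 ratio, 0.84 to 1.28 for Psmb9 to Psmb6 and 0.27 to 0.59 for Psmb10 to Psmb7. Log2 fold changes that turned sign ran from -0.013 to 0.24 for Psmb5, -0.046 to 0.019 for Psmb6, -0.040 to 0.084 for Psmb7, -0.083 to 0.084 for Psmd9, -0.065 to 0.052 for Psmb1, -0.011 to 0.076 for Psma3, -0.046 to 0.027 for Psmc3, -0.048 to 0.11 for Psmc2, -0.015 to 0.074 for Psmd3, -0.028 to 0.087 for Psmd10, -0.024 to 0.26 for Psmg4 and -0.18 to 0.024 for Rps27a. The causes were not tested. No paired analysis was possible because the replicate numbers follow the order of listing and the animal numbers in the labels are not shared between the groups. With 3 hearts a group, differences inside the intervals given cannot be told from none.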
